A study of Mus musculus with 7 samples.

Results

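The leukocyte beta 2 integrins and their ligands were followed through bulk mouse tumours as 8 genes: the alpha chains Itgam, Itgax, Itgal and Itgad, the common beta chain Itgb2, the ligands Icam1 and Icam2, and Selplg. They were chosen by gene symbol, and all 8 matched 1 row each among the 32212 genes of the deposited tables. Gene expression was measured by sequencing poly(A) RNA from subcutaneous tumours of Lewis lung carcinoma (LLC), a transplantable mouse lung cancer line, grown in C57BL/6J mice labelled wild type. The ZQD group held 3 libraries from tumour-bearing mice given Ze-qi decoction, a herbal preparation, in a high-dose arm of 42.67 g/kg. The control group held 4 libraries from tumour-bearing mice of the model arm, whose treatment is labelled none. No vehicle is named for the controls. All mice were 6 weeks old when the cells were injected, were assigned to arms 3 days later, and gave tumours on day 22 by one label and day 21 by another. The libraries are numbered within each group but are not said to come from separate mice, and so the p-values speak only of the spread among these libraries, part of which can be technical.

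Beta 2 integrins are adhesion receptors of white blood cells, each made of one alpha chain joined to Itgb2 (CD18). The alpha chain sets the receptor: Itgal gives LFA-1, which lymphocytes use to bind ICAMs, Itgam gives Mac-1 (CD11b) of neutrophils, monocytes and macrophages, Itgax gives CD11c, best known on dendritic cells and some macrophages, and Itgad gives CD11d, known on some tissue macrophages. A leukocyte first rolls on selectins through carriers such as Selplg (PSGL-1), and its integrins are then switched on and hold Icam1 or Icam2 on the vessel wall. Itgam and Itgax also bind complement fragments, which makes them receptors for opsonised particles.

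With ZQD set against control, the question is what the decoction does to expression in the tumour, and the 2 neighbouring alpha chains Itgam and Itgax had fold changes of opposite sign. Itgam was higher in all 3 ZQD libraries than in any control, at 15.3 ± 2.89 FPKM in ZQD and 8.51 ± 2.05 FPKM in controls (SD, n = 3 and 4; FPKM are counted reads scaled by exon length and by the total of the library). Itgax averaged 16.0 ± 6.74 FPKM in ZQD and 25.6 ± 6.00 FPKM in controls, with overlapping libraries. Icam1 was also higher in every ZQD library than in any control, while Itgb2, Itgal, Selplg and Icam2 overlapped between the groups and Itgad was close to 0. No member passed the adjusted threshold of the test across all genes, limma on log2(FPKM + 0.5) with a Benjamini-Hochberg adjusted p under 0.05, and neither did any other gene: 0 of 14838 genes passed (0%), and the smallest adjusted p was 0.078. At an unadjusted p under 0.05, 2 of the 7 members tested (Itgam and Icam1) were higher in ZQD, where 5.21% of all genes tested were, and 1 (Itgax) was lower, where 10.3% were. Groups did not overlap with ZQD above for 2 members, against 5.35% of all genes, and with ZQD below for 0 members, against 9.84% of all genes.

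**Figure D1:**
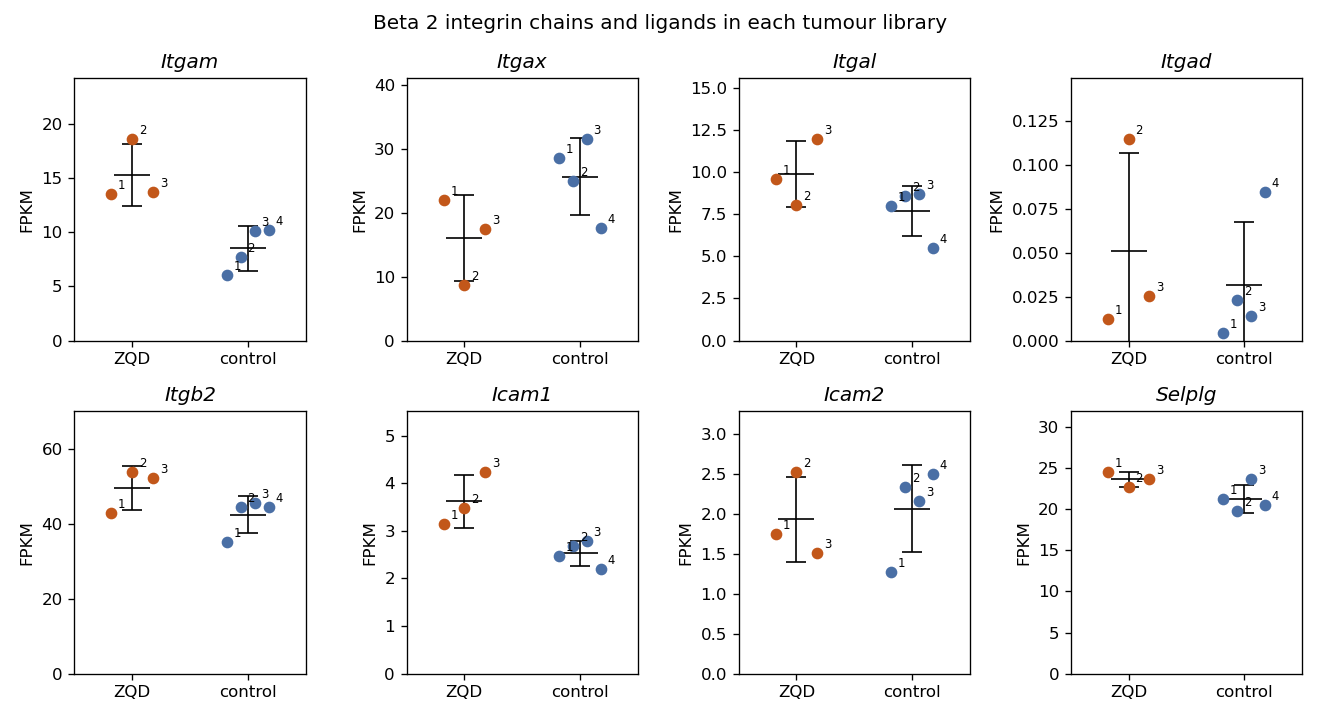
Deposited FPKM of the 8 genes (y axis, linear, from 0, with its own range for each gene) in the ZQD libraries (orange, left) and the control libraries (blue, right). Numbers beside the points are library numbers, the long bar is the group mean and the whiskers are the SD (n = 3 ZQD and 4 control). All ZQD points lie above all control points for Itgam (13.5 and above in ZQD, up to 10.2 in controls) and for Icam1 (3.15 and above in ZQD, up to 2.78 in controls).

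The tumours are labelled as tumour cells but were sequenced as tissue, and leukocyte RNA was present in every library: the 10 pan-leukocyte markers summed to 209.7 to 217.4 FPKM in ZQD and 183.6 to 213.8 in controls. Among epithelial markers, Krt19 averaged 14.5 FPKM in ZQD and 18.1 in controls, whereas Krt8, Epcam, Nkx2-1 and Sftpc stayed at or near 0. In such bulk tissue, more cells of a type and more RNA per cell cannot be told apart. Of these 10, 2 were higher at an unadjusted p under 0.05 and 0 lower (5.21% and 10.3% of all genes), with Laptm5 at 56.0 FPKM in ZQD and 49.5 in controls and the phosphatase gene Ptpn6 at 40.2 in ZQD and 38.3 in controls. The libraries held 34765330 to 38673663 counted reads in ZQD and 32065288 to 49914394 in controls. Reads of the mitochondrial genome took 8.78 to 11.1% of each ZQD library and 5.18 to 7.96% of each control library. FPKM are shares of a library: with those reads left out of the totals, the log2 fold changes of Itgam, Itgax and Icam1 given below become 0.88, -0.67 and 0.49, and the median of all genes moves by 0.047.

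Itgam and Itgax lie next to each other on chromosome 7, with no protein-coding gene between them in the RefSeq annotation of GRCm38.p6. Itgad follows Itgax, again with none between, whereas 35 protein-coding genes separate Itgal from Itgam on the same chromosome. The promoters of the 2 neighbours are shown because their transcripts differed in direction, and that of Icam1 because it was the other member higher in every ZQD library. The RefSeq table of promoters held these 3 of the 8 genes. Each window runs from 250 bases before to 50 bases after the annotated start, 5′ to 3′ on the plus strand of GRCm38.p6, at chr7:128062390-128062689 for Itgam, chr7:128129300-128129599 for Itgax and chr9:21015690-21015989 for Icam1. Capitals mark every match, on either strand, to the 4 motifs searched: GAGGAA (the core bound by the myeloid factor PU.1), TGTGGT (RUNX factors), GGAANTTCC (NF-kappa B) and TATAAA (the TATA box).
Itgam: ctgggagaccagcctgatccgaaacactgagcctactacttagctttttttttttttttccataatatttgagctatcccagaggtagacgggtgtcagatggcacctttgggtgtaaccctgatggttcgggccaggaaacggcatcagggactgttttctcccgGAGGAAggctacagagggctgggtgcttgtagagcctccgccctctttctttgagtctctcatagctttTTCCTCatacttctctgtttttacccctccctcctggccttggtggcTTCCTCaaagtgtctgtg
Itgax: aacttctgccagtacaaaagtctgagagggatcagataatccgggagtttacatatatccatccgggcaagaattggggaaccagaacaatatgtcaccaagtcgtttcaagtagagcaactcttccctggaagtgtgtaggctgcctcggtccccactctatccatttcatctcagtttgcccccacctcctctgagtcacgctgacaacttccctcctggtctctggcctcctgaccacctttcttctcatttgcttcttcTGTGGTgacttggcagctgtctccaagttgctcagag
Icam1: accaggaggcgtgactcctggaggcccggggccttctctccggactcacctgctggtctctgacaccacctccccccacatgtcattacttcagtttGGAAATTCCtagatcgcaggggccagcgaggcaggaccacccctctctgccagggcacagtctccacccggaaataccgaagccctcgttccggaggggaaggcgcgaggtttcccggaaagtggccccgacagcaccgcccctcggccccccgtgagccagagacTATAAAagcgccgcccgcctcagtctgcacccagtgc
The Itgam window held 3 matches to GAGGAA, at positions -84, -15 and 32 from the start, the last 2 on the minus strand. The Itgax window held none of these and 1 match to TGTGGT at position 13. The Icam1 window held GGAAATTCC, a match to the NF-kappa B motif, at position -153 and TATAAA at position 13. Of all 32851 promoters of the table, 28.28% held GAGGAA, 16.76% TGTGGT, 0.928% GGAANTTCC and 13.62% TATAAA. These short motifs do not overlap one another in the windows printed, and a match describes the letters only.

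Itgb2 (ENSMUSG00000000290, chromosome 10) encodes the beta chain that every member of the family needs. It had 42.9, 54.0 and 52.2 FPKM in ZQD libraries 1 to 3, against 35.3, 44.6, 45.7 and 44.7 FPKM in control libraries 1 to 4. The groups overlapped: ZQD 2 and ZQD 3 were above every control, ZQD 1 lay among the controls, and control 1 was the lowest library of all. The means were 49.7 ± 5.97 FPKM in ZQD and 42.6 ± 4.85 in controls, a log2 fold change of 0.22 (SE 0.12, 95% interval -0.057 to 0.50; limma adjusted p = 0.414). With 1 library left out the log2 fold change ranged from 0.14, without control 1, to 0.32, without ZQD 1. Relative to Ptprc (CD45), a surface phosphatase of all white blood cells, the log2 ratio of Itgb2 differed by 0.028 between ZQD and control (two-sided exact permutation p = 0.857, 0.857 after adjustment over the 8 ratios compared). No difference was thus called for the beta chain on either scale, and with so few libraries this does not show that there was none.

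Itgam (ENSMUSG00000030786) encodes CD11b, the alpha chain of Mac-1. Its level was 13.5, 18.6 and 13.7 FPKM in ZQD libraries 1 to 3, against 6.01, 7.68, 10.1 and 10.2 FPKM in control libraries 1 to 4. The lowest ZQD library stood above the highest control, and ZQD 2 was the highest of the 7. Its log2 fold change was 0.82 (SE 0.20, 95% interval 0.38 to 1.27) and its limma adjusted p was 0.161. The depth behind it was 1499 to 3619 reads per library. On reads rebuilt from the FPKM, edgeR gave an adjusted p of 0.135 and DESeq2 one of 0.00227. DESeq2 called 288 genes higher (2.2% of 13099 with an adjusted p) and 216 lower (1.65%), and Itgam and Icam1 were the 2 members among them. Each left-out library kept the sign, with log2 fold changes of 0.68 to 0.92.

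Itgax (ENSMUSG00000030789) encodes CD11c. It had 22.0, 8.74 and 17.4 FPKM in ZQD libraries 1 to 3, against 28.5, 25.0, 31.6 and 17.6 FPKM in control libraries 1 to 4. ZQD 2 was the lowest of all, ZQD 3 was just under control 4, the lowest control, and ZQD 1 lay inside the control range. The log2 fold change was -0.72 (SE 0.30, 95% interval -1.42 to -0.029; limma adjusted p = 0.309, and 0.333 in edgeR and 0.162 in DESeq2). One library carried much of its size: without ZQD 2 it was -0.35.

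Itgal (ENSMUSG00000030830), the alpha chain of LFA-1, had 9.58, 8.05 and 12.0 FPKM in ZQD libraries 1 to 3, against 7.97, 8.56, 8.66 and 5.49 FPKM in control libraries 1 to 4. ZQD 2 lay within the control range and control 4 was the lowest. Its log2 fold change of 0.35 (SE 0.18, 95% interval -0.067 to 0.76) had an adjusted p of 0.395 in limma, and it was 0.20 both without control 4 and without ZQD 3.

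Itgad (ENSMUSG00000070369), the alpha chain of CD11d, did not reach the 0.5 FPKM asked for in 3 libraries and was not tested. It had 2, 20 and 4 reads in ZQD libraries 1 to 3, against 1, 4, 2 and 15 reads in control libraries 1 to 4, or at most 0.115 FPKM. ZQD 2 and control 4, the libraries with the most Itgad reads in each group, were those with the lowest Itgax in each group. The 2 genes are the only pair of members whose transcripts share runs of 50 bases, which make up 8.43% of those in Itgad. What these shared runs did to the counting of Itgad reads was not tested.

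Levels of different genes can be compared only per base that could be counted, and this mattered for Itgam. The deposited gene lengths equal the exon bases of GENCODE vM21 for 98.2% of the 27021 genes found in both and for all 8 members. In that annotation 3450 of the 5024 exon bases of Itgam are shared with Gm49368, a gene on the same strand that runs across Itgam, and Gm49368 itself had only 0 to 5 reads per library. Genes all of whose exon bases are shared were nearly missing from the files, which listed 1 of 765 such genes on the same strand and 2 of 460 shared on the opposite strand alone, against 22882 of 43557 genes with no shared base. Reads on shared bases thus appear to have been given to no gene, which leaves 1574 bases on which Itgam was counted. Per base not shared, the Itgam level is 3.19 times the deposited FPKM, that of Icam1 1.13 times and that of Itgad 1.25 times, while the other 5 members share none. This factor is the same in every library and leaves each fold change between groups as it was, apart from the added 0.5 FPKM. It is approximate, since reads that cross the edge of a shared stretch may be lost as well.

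On that scale Itgam averaged 48.8 ± 9.23 FPKM in ZQD and 27.2 ± 6.53 FPKM in controls. In ZQD libraries the order of the levels ran from Itgb2 (49.7) through Itgam (48.8), Selplg (23.7), Itgax (16.0), Itgal (9.87), Icam1 (4.11) and Icam2 (1.93) to Itgad (0.0632). In controls it ran from Itgb2 (42.6) through Itgam (27.2), Itgax (25.6), Selplg (21.3), Itgal (7.67), Icam1 (2.87) and Icam2 (2.07) to Itgad (0.0391). Neighbours in the order whose libraries overlapped were Itgb2 with Itgam and Itgax with Itgal in ZQD, and Itgam with Itgax, Itgax with Selplg and Icam1 with Icam2 in controls.

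Within each library, Itgam made up 57.7, 77.8 and 59.9% of the summed alpha chain FPKM in ZQD libraries 1 to 3, against 34.5, 42.2, 44.6 and 58.5% in control libraries 1 to 4. The groups overlapped in this share, since control 4 exceeded ZQD 1. The Itgax share was 29.5, 11.4 and 23.8% in ZQD libraries, against 51.2, 43.0, 43.5 and 31.5% in control libraries, with every ZQD library below every control. Itgam was the leading alpha chain in all 3 ZQD libraries, whereas controls 1 and 2 were led by Itgax and controls 3 and 4 by Itgam. The Itgal share averaged 13.2 ± 2.92% in ZQD and 12.7 ± 2.28% in controls. The summed alpha chains came to 1.40 to 1.74 times the Itgb2 level in ZQD and 1.25 to 1.59 times in controls, so this ratio of alpha to beta chain transcripts overlapped between the groups. With the lengths as deposited the mean Itgam share would be 38.1% in ZQD and 20.9% in controls, and Itgax would lead in every library but ZQD 2.

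**Figure D2:**
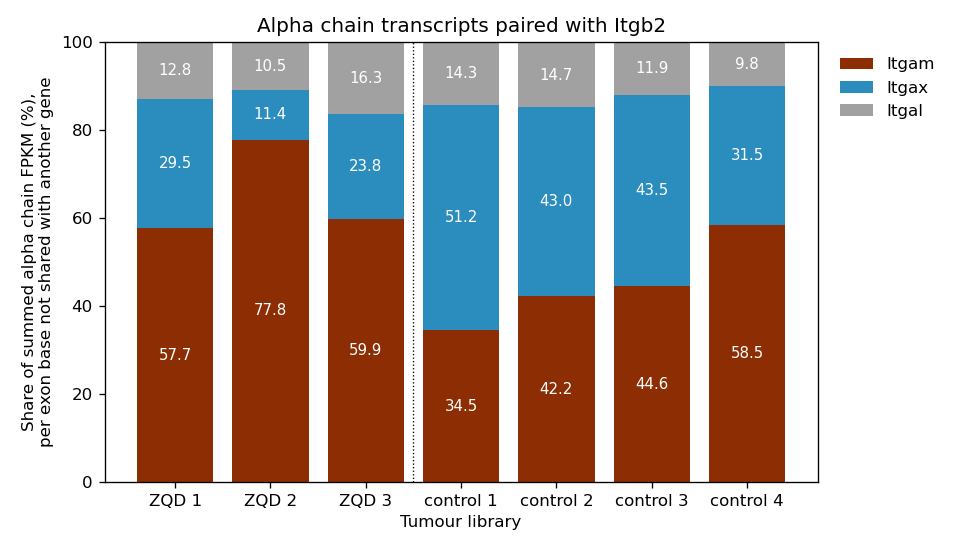
Share of each alpha chain in the summed alpha chain FPKM of a library (y axis, percent, per exon base that no other gene shares), with ZQD libraries left of the dotted line and control libraries right of it. Itgad, at most 0.188%, is too thin to see. Itgam takes 57.7% or more in every ZQD library and 34.5 to 58.5% in controls.

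Set side by side, the 2 chains gave an Itgam over Itgax ratio, per base not shared, of 1.96, 6.80 and 2.52 in ZQD libraries 1 to 3, against 0.673, 0.982, 1.03 and 1.85 in control libraries 1 to 4. Every ZQD library was above every control, but ZQD 1 and control 4 were close. On the log2 scale, where the length factor cancels, the difference was 1.61 (two-sided exact permutation p = 0.0571 over 35 arrangements, 0.152 adjusted over the 8 ratios; the smallest p the design allows is 0.0286). Without ZQD 2 it was 1.07. Relative to Itgb2, Itgam differed by 0.64 (exact p = 0.0286, adjusted 0.152, ZQD above in all 3 libraries) and Itgax by -0.97 (exact p = 0.114, adjusted 0.183). Relative to Ptprc, Itgam differed by 0.67 (exact p = 0.0857, adjusted 0.171) and Itgax by -0.94 (exact p = 0.0571, adjusted 0.152, ZQD below in all 3 libraries). No ratio passed after adjustment. Without ZQD 2 the Itgax to Itgb2 difference was -0.52 and the Itgam to Ptprc difference 0.42.

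Icam1 (ENSMUSG00000037405, chromosome 9) encodes the inducible ligand of LFA-1 and Mac-1. It was at 3.15, 3.49 and 4.24 FPKM in ZQD libraries 1 to 3, against 2.46, 2.69, 2.78 and 2.20 FPKM in control libraries 1 to 4. All ZQD libraries exceeded all controls, by a narrow gap between ZQD 1 and control 3. The log2 fold change was 0.44 (SE 0.13, 95% interval 0.15 to 0.73; limma adjusted p = 0.193), with adjusted p-values of 0.172 in edgeR and 0.0211 in DESeq2. It rests on 377 to 643 reads per library, and 511 of the 4360 exon bases of Icam1 are shared with Gm47079 on the opposite strand.

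Icam2 (ENSMUSG00000001029, chromosome 11), a ligand carried at a steady level by endothelium, had 1.75, 2.53 and 1.51 FPKM in ZQD libraries 1 to 3, against 1.27, 2.34, 2.16 and 2.49 FPKM in control libraries 1 to 4. The libraries of both groups were intermixed. Its log2 fold change of -0.073 had an interval of -0.57 to 0.42 (limma adjusted p = 0.899), on 100 to 187 reads, and its sign turned to 0.053 without ZQD 3 and to 0.011 without control 4. The log2 ratio of Icam2 to Icam1 differed by -0.60 (two-sided exact permutation p = 0.2, adjusted 0.267), and by -0.32 without ZQD 3. Among endothelial markers, Cdh5, the junction protein VE-cadherin, averaged 12.1 FPKM in ZQD and 10.4 in controls, and Pecam1 8.56 in ZQD and 8.16 in controls. Of 11 endothelial markers tested 0 were higher and 1 lower at an unadjusted p under 0.05. Among all genes 5.21% were higher and 10.3% lower, so the lower count is near that share. The endothelial median was 0.14 and turned to -0.061 without ZQD 2. The list summed to 27.6 to 51.5 FPKM in ZQD and 28.6 to 42.9 in controls.

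Selplg (ENSMUSG00000048163, chromosome 5), the leukocyte ligand of P-selectin and the member acting before the integrins, had 24.6, 22.7 and 23.7 FPKM in ZQD libraries 1 to 3, against 21.2, 19.8, 23.7 and 20.5 FPKM in control libraries 1 to 4. Only control 3 reached the ZQD range. It was the steadiest member, with an SD of 3.98% of the mean in ZQD and 7.94% in controls. Its log2 fold change of 0.15 (interval -0.046 to 0.35) had a limma adjusted p of 0.431.

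**Figure D3:**
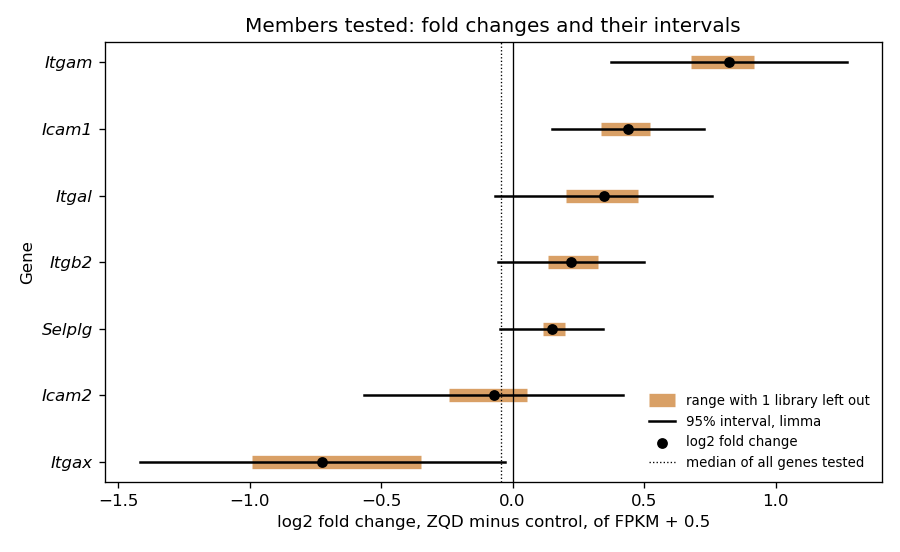
Log2 fold change, ZQD minus control, of FPKM + 0.5 (x axis) for the 7 members tested (rows). Points are limma estimates, thin lines their 95% intervals, thick bars the range with 1 library left out, and the dotted line the median of all genes tested, -0.043. The intervals of Itgam, Icam1 and Itgax lie off 0 before any adjustment, and the left-out range of Itgax reaches -0.35.

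Which genes varied most like each member was measured as the root mean square difference of log2(FPKM + 0.5), centred on each gene, over the 7 libraries and 12705 tested genes with a mean FPKM of at least 1. Nearest to Itgam, whose own spread on that scale was 0.49, were Tmem252 (0.0989), the predicted gene Gm21188 (0.152) and Klf4 (0.159), a transcription factor of monocytes and epithelia. Nearest to Itgax, whose spread was 0.56, were Ptprq (0.214), Cx3cr1 (0.216), the fractalkine receptor of monocytes and macrophages, and Zmynd15 (0.237). Cx3cr1 had 11.2, 2.61 and 9.12 FPKM in ZQD libraries 1 to 3, against 11.4, 9.77, 14.0 and 6.85 FPKM in control libraries 1 to 4. Like Itgax it was lowest in ZQD 2 within its group and in control 4 within the other. The nearest to Icam1 was Apobr, a lipoprotein receptor (0.0357), to Selplg the chromatin remodelling gene Rsf1 (0.0322), to Itgb2 Gm10275 (0.0482), to Itgal Gm14399 (0.0856) and to Icam2 Gm23201 (0.104). With 7 libraries and so many genes, near patterns are to be had for any gene, and the values are descriptions only.

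**Figure D4:**
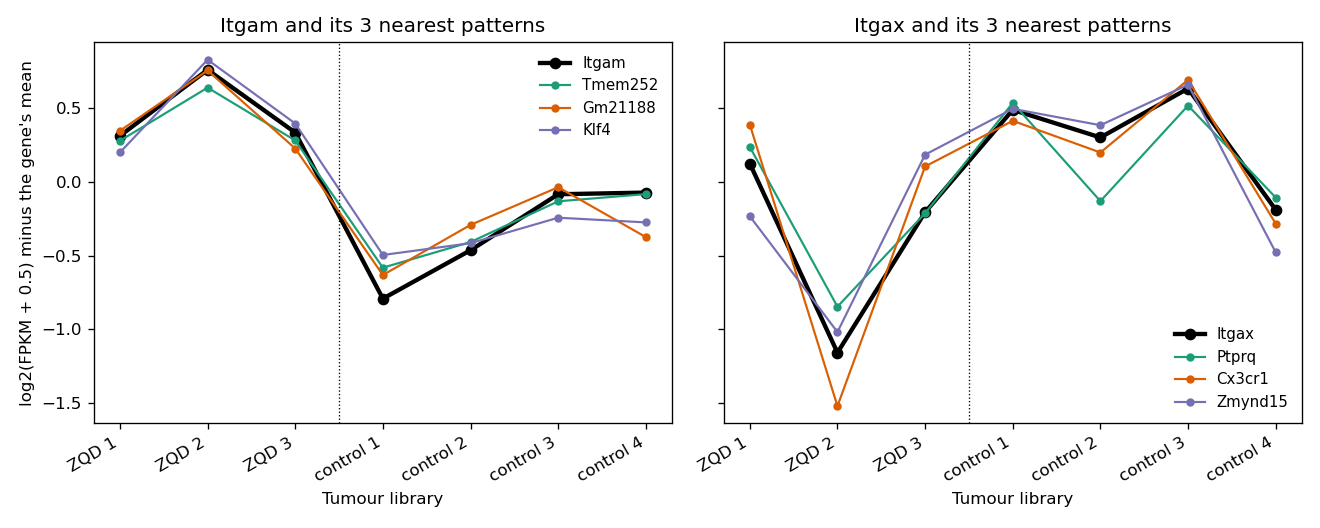
log2(FPKM + 0.5) minus each gene's mean over the 7 libraries (y axis) for Itgam (left panel, black) and Itgax (right panel, black), each with its 3 nearest genes (colours), in ZQD libraries left of the dotted line and control libraries right of it. The Itgam group is high in all ZQD libraries with its peak in ZQD 2, where the Itgax group has its low point.

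The genes around the members were counted over lists set with earlier results of these data known. Over all 14838 genes tested the median log2 fold change was -0.043, with 41.8% of genes higher in ZQD, and 5.21% were higher and 10.3% lower at an unadjusted p under 0.05. Of the 10 factors that regulate myeloid integrin genes, 2 were higher at an unadjusted p under 0.05 and 1 lower, with a median of 0.075. Klf4 had 1.24, 2.19 and 1.49 FPKM in ZQD libraries, against 0.572, 0.633, 0.777 and 0.749 FPKM in control libraries. Klf2, which restrains activation of monocytes and endothelium, averaged 16.9 ± 0.891 FPKM in ZQD and 11.8 ± 1.72 in controls, and the general promoter factor Sp1 22.1 ± 0.649 FPKM in ZQD and 27.5 ± 1.84 in controls. Their log2 fold changes were 0.83 for Klf4, 0.51 for Klf2 and -0.31 for Sp1, with limma adjusted p-values of 0.154, 0.154 and 0.178. None of the 3 overlapped between groups, where 5.35% of all genes had ZQD wholly above and 9.84% wholly below. Spi1, which encodes PU.1, lay at 17.8 to 18.0 FPKM in ZQD and 15.5 to 19.5 in controls, so its groups overlapped (it is named after its values were seen).

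Of the 15 NF-kappa B genes and inducers of Icam1, 1 was higher and 2 lower at an unadjusted p under 0.05, and the median was -0.039. These counts are near the shares of all genes, 5.21% higher and 10.3% lower. Relb, an NF-kappa B subunit, averaged 3.30 ± 0.375 FPKM in ZQD and 4.87 ± 0.570 in controls, and Tnfaip3, a feedback inhibitor that NF-kappa B itself induces, 6.72 ± 1.24 in ZQD and 9.21 ± 0.919 in controls. Both were below all controls in every ZQD library, as were 9.84% of all genes (log2 fold changes -0.50 and -0.44, limma adjusted p = 0.163 and 0.211), whereas Icam1 was above. The list did not move one way: 7 genes had a higher mean log2 level in ZQD and 8 a lower one. Among the higher were Nfkbia (log2 fold change 0.067), Tnf (0.37) and Il1b (0.73), all with overlapping groups. Ifngr1, a chain of the interferon gamma receptor, averaged 32.4 ± 3.39 FPKM in ZQD and 24.3 ± 4.66 in controls (log2 fold change 0.42, limma adjusted p = 0.28).

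The list of further beta 2 integrin ligands, which also holds the related gene Jam2, had 12 of 15 genes in the files. Of the 7 tested, 3 (Jam2 among them) were higher and 1 lower at an unadjusted p under 0.05 (5.21% and 10.3% of all genes). Their median was 0.12. C3, the complement protein whose fragment iC3b is bound by Mac-1 and CD11c, had 28.3, 23.2 and 19.7 FPKM in ZQD libraries, against 11.9, 19.2, 11.3 and 5.64 FPKM in control libraries. The lowest ZQD library was only just above control 2, and the log2 fold change was 1.06 (SE 0.34, limma adjusted p = 0.216). Thy1, a ligand of Mac-1 that T cells also carry, averaged 20.3 ± 5.20 FPKM in ZQD and 14.5 ± 2.32 in controls. Its level in ZQD 3 (16.51 FPKM) was barely above that in control 1 (16.50), and ZQD 2 was the highest at 26.2. Jam2, a junction protein of endothelium, averaged 1.37 ± 0.354 FPKM in ZQD and 0.812 ± 0.194 in controls. Jam2 is not an established ligand of beta 2 integrins. F11r (JAM-A), a junction protein that LFA-1 binds, averaged 13.2 ± 1.57 FPKM in ZQD and 18.1 ± 1.94 in controls (log2 fold change -0.44, limma adjusted p = 0.175). Every ZQD library was below every control for F11r, as for 9.84% of all genes. Vcam1, a ligand of alpha 4 beta 1 and of CD11d named after its values were seen, ranged from 19.2 to 19.8 FPKM in ZQD and from 9.67 to 27.2 in controls.

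Of 18 genes tested in integrin activation and signalling, which include talin, kindlin-3 and the Src family kinases, 1 was higher and 0 lower at an unadjusted p under 0.05, and the median was 0.095, which turned to -0.0060 on the TPM scale. The share of higher genes is close to the 5.21% of all genes. The one was Dock2, a Rac activator of leukocyte migration, at 6.84 ± 0.753 FPKM in ZQD and 4.90 ± 0.659 in controls (log2 fold change 0.45, limma adjusted p = 0.186). Of 16 other integrin chains tested 1 was higher and 0 lower, again close to that share, with a median of -0.035. It was Itga4, the alpha 4 chain of lymphocytes and monocytes, at 3.79 ± 0.664 FPKM in ZQD and 2.53 ± 0.750 in controls. Of 14 genes of selectins and of the synthesis of their ligands, 2 were higher and 1 lower (5.21% and 10.3% of all genes). Their median was 0.15. Gcnt1, the enzyme that branches the sugars with which Selplg binds P-selectin, averaged 20.3 ± 1.77 FPKM in ZQD and 16.7 ± 0.799 in controls. Glg1, a ligand of E-selectin, averaged 25.3 ± 1.59 FPKM in ZQD and 34.4 ± 6.27 in controls.

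Markers of the myeloid cells that carry these integrins also had mostly higher means in ZQD. Of 15 macrophage and monocyte markers 7 were higher and 0 lower at an unadjusted p under 0.05, where 5.21% of all genes were higher and 10.3% lower, with a median of 0.38, and their summed level was 1261 to 1583 FPKM in ZQD and 880.8 to 1249 in controls. Lyz2, lysozyme of myeloid cells, averaged 448.4 ± 88.1 FPKM in ZQD and 246.3 ± 91.2 in controls. C1qb, a complement chain made by macrophages, averaged 308.3 ± 31.1 FPKM in ZQD and 238.6 ± 36.2 in controls. Of the 15 markers, 13 had a higher mean log2 level in ZQD and 2 a lower one. The 2 were Cx3cr1 (log2 fold change -0.60) and C1qa (-0.031), a partner chain of C1qb. Among the 13, Cd68 (0.16), Adgre1 (0.082), Fcgr1 (0.066) and C1qc (0.084) changed little and overlapped between the groups. Lyz2 was lowest in control 4, at 115.1 FPKM, the control in which Itgam was highest. Of 8 neutrophil markers tested 1 was higher and 0 lower, with a median of 0.44, which was 0.11 without ZQD 2. The 1 was Lcn2, at 0.614 to 1.20 FPKM in ZQD and 0.190 to 0.368 in controls. It passed the 0.5 FPKM filter only through the ZQD libraries, so its call carries no weight. S100a9, an alarmin of neutrophils and monocytes, had 9.56, 48.6 and 21.1 FPKM in ZQD libraries, against 17.6, 9.51, 11.2 and 5.30 FPKM in control libraries, and the neutrophil gelatinase Mmp9 averaged 19.5 ± 10.5 FPKM in ZQD and 25.1 ± 12.8 in controls. The defining neutrophil marker Ly6g lay at or below 0.246 FPKM in every library, and the neutrophil sum was 45.1 to 104.1 FPKM in ZQD and 30.4 to 67.2 in controls. The part of cell numbers in the Itgam difference was not tested.

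Itgax is used as a marker of dendritic cells, so their other markers were set beside it. Of 10 tested, 1 was higher and 0 lower at an unadjusted p under 0.05 (5.21% and 10.3% of all genes). The 1 was Clec10a, at 1.65, 5.58 and 0.704 FPKM in ZQD libraries 1 to 3 and 0.320 to 0.581 in controls, so ZQD 2 dominated it. The median of the list was 0.19, and 0.044 without control 4. The list summed to 290.3 to 609.8 FPKM in ZQD and 134.4 to 504.1 in controls. Cd74, the invariant chain of class II antigen presentation, had 325.7, 167.7 and 372.3 FPKM in ZQD libraries 1 to 3, against 289.5, 281.7, 247.0 and 82.7 FPKM in control libraries 1 to 4. The class II chain H2-Ab1 averaged 106.8 ± 43.4 FPKM in ZQD and 77.0 ± 36.9 in controls. Both genes were lowest in ZQD 2 within its group and in control 4 within the other, as Itgax was, but their group means were higher in ZQD where that of Itgax was lower. Class II genes are also made by macrophages and B cells. Of the 10 markers 4 had a lower mean log2 level in ZQD: the homing receptor Ccr7 (log2 fold change -0.18), the chemokine receptor Xcr1 (-0.13), Zbtb46 (-0.058) and Batf3 (-0.00023), so the list did not move one way. The part of dendritic cell numbers in the Itgax difference was not tested.

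Markers of lymphocytes, carriers of Itgal, were higher on average: all 12 T cell markers and all 5 tested NK cell markers had a higher mean in ZQD, with 2 and 3 of them at an unadjusted p under 0.05 (5.21% of all genes). The NK and T cell transcription factor Eomes averaged 31.7 ± 1.63 FPKM in ZQD and 23.2 ± 5.82 in controls, the NK receptor Klrd1 7.43 ± 0.317 in ZQD and 4.83 ± 1.06 in controls, and Cd8a, of cytotoxic T cells, 6.19 ± 1.23 in ZQD and 5.10 ± 1.29 in controls. Over the 7 libraries Eomes averaged 26.8 FPKM, above Ptprc of all white blood cells at 11.6. The part of lymphocytes in the Eomes level was not tested. The NK markers Ncr1, Klrb1c and Klra8 averaged only 0.469, 0.102 and 0.405 FPKM over the 7 libraries and were not tested. The summed T cell markers were 45.2 to 49.0 FPKM in ZQD and 27.4 to 43.0 in controls, but without Thy1, which leads them, the sums overlapped, at 27.0, 22.8 and 31.8 FPKM in ZQD libraries 1 to 3, against 25.8, 27.1, 23.3 and 16.1 FPKM in control libraries 1 to 4. The median log2 fold change of the T cell markers was 0.22, and 0.084 without control 4. Itgal itself overlapped between the groups. B cell markers were few, with 2 of 8 tested and 0 of them at an unadjusted p under 0.05, Pax5 at 1.28 FPKM in ZQD and 1.61 in controls and Cd79b at 1.10 in ZQD and 0.990 in controls.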

How the data were processed

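Poly(A) RNA sequencing of 3 ZQD and 4 control tumour libraries was used. The authors deposited FPKM per Ensembl gene for every library, and for 2 controls also the raw count of each gene. HISAT2, Subread with featureCounts, and DESeq2 are named as tools per the submitters' processing notes. Versions, genome build, annotation and strandedness remain not given in the sources used here. Deposited FPKM equal count over gene length and library total, which gave whole-base lengths and, from them, reads for 27421 genes. Every such value was whole to within 0.05 reads.

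Symbols came from a name table (98.0% of identifiers matched). limma 3.58.1 (R 4.3.3; trend, two-sided, Benjamini-Hochberg over all genes) was fitted to log2(FPKM + 0.5) for 14838 genes with at least 0.5 FPKM in at least 3 libraries. Fold changes on that scale understate the change of low genes. The quasi-likelihood test of edgeR 4.0.16 and the Wald test of DESeq2 1.42.0 took the rebuilt reads of 14832 genes (6 had no length). DESeq2 gave no adjusted p for 1733 of them. The fits were first run on simulated reads with the same spread for every gene, to check that planted changes were recovered. That run does not speak to the difference in calls between the tools. Ratios within a library were compared by exact permutation over 35 arrangements. Shared exon bases were found by comparing GENCODE vM21 exons with the deposited lengths. Promoters are those of RefSeq for GRCm38.p6. Figures were drawn with matplotlib 3.10.9.

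The members and gene lists were chosen with earlier results of these data known. Named beside the members were, from each pathway list, up to 4 genes of smallest unadjusted p if under 0.05, from each cell type list the 2 most abundant, and the genes of nearest pattern; 1 gene so chosen is not reported here. Alternatives covered the pseudocount, filter, scaling, count tools, library weights, the replicate number as a block, each library left out, and, added after seeing the data, levels per base not shared. Interval widths are 95%, and, as the reads carry no molecular identifiers, depths bound counting error only.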

Additional observations from a re-analysis of the deposited data

Results flagged for a closer look

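Single libraries far from the rest of their group were looked for in the 4 controls, over 17 measures of the members, their ratios and Ptprc. The ZQD group, with 3 libraries, is too small for this. Itgb2 stood out because control 1, at 35.3 FPKM, lay apart from the other controls at 44.6, 44.7 and 45.7, a gap of 0.896 of the range of the group. Ptprc stood out because control 3, at 13.7 FPKM, lay apart from 9.90, 10.1 and 10.2, a gap of 0.925 of the range. Both gaps exceed the 95% critical value of Dixon's test for 4 samples, which chance passes in about 1 of 20 groups. The Itgb2 fold change without control 1 is given with its values in the report. Without control 3 the log2 fold change of Ptprc was 0.29, in place of 0.19.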

How the results depend on the processing

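Results were recomputed under the alternatives listed for the processing and with each library left out. Itgam, Itgax, Itgal, Itgb2, Icam1 and Selplg kept the direction of their log2 fold change under all 19 alternatives. DESeq2 put Itgam (0.89) and Icam1 (0.56) past the adjusted threshold and called 504 genes where limma and edgeR called 0 (edgeR had 2221 genes at an unadjusted p under 0.05). With 1 library left out, Itgam ranged from 0.68 to 0.92, Itgax from -0.99 to -0.35, Icam1 from 0.33 to 0.52 and Icam2 from -0.24 to 0.053, Icam2 changing sign. The shared replicate numbers did not pair the samples (correlations of deviations 0.25, 0.10 and -0.15 for numbers 1 to 3). The replicate block, which drops control 4, called 1 gene and turned Icam2 to 0.011 and the Itgal to Itgb2 log2 ratio to -0.035. That ratio ranged from -0.035 to 0.34 with 1 library left out, and the Itgb2 to Ptprc ratio from -0.14 to 0.20. Without ZQD 2 the Itgam to Itgax difference was 1.07 and the Itgax to Itgb2 difference -0.52. List medians with 1 library left out ranged from 0.033 to 0.13 for integrin activation, 0.083 to 0.29 for further ligands, -0.11 to 0.017 for other integrins, 0.058 to 0.18 for selectins, 0.019 to 0.13 for the regulators, -0.095 to 0.019 for NF-kappa B, 0.29 to 0.47 for macrophages, 0.11 to 0.84 for neutrophils, 0.044 to 0.25 for dendritic cells, 0.084 to 0.28 for T cells, -0.061 to 0.33 for endothelium and -0.89 to 0.54 for platelets and erythroid cells. On the TPM scale the regulators' median was -0.023. Of genes at an unadjusted p under 0.05, 773 were higher and 1533 lower. This split was 379 and 2856 on the TPM scale, 1008 and 1158 with median-of-ratios scaling, 1094 and 1093 with TMM, 1153 and 1045 without mitochondrial genes, 1134 and 1087 in edgeR and 1188 and 1134 in DESeq2. On the TPM scale the log2 fold changes were 0.72 for Itgam, -0.82 for Itgax, 0.35 for Icam1, 0.12 for Itgb2 and 0.049 for Selplg, with a median of all genes of -0.13. With lengths as deposited, the mean alpha chain shares were 38.1% in ZQD and 20.9% in controls for Itgam, 37.9% in ZQD and 60.7% in controls for Itgax, and 23.9% in ZQD and 18.3% in controls for Itgal. With 1 library left out, the shares per base not shared ranged from 58.8 to 68.8% in ZQD and 40.4 to 48.4% in controls for Itgam, and from 17.6 to 26.6% in ZQD and 39.3 to 45.9% in controls for Itgax. Depth limits Itgad (1 to 20 reads) and Icam2 (100 to 187 reads).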

Other observations

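Lists of other tissues in the tumour gave no member of a group past an unadjusted p of 0.05. Of 7 platelet and erythroid genes tested 4 were higher and 3 lower in ZQD, and ZQD 2 stood apart with a summed level of 414.4 FPKM, against 61.9 to 78.5 in the other 2 ZQD libraries and 67.9 to 242.9 in controls. The globin gene Hbb-bs had 37.6, 180.9 and 22.5 FPKM in ZQD libraries 1 to 3, against 135.8, 32.5, 65.4 and 83.4 in control libraries 1 to 4, and Hba-a1 averaged 43.6 ± 43.4 FPKM in ZQD and 34.2 ± 18.4 in controls. ZQD 2 is also the library with the highest Itgam and the lowest Itgax, and the part of blood in those values was not tested. Both epithelial genes tested had lower means in ZQD, Krt19 as given above and Cdh1 at 0.777 ± 0.184 FPKM in ZQD and 1.00 ± 0.322 in controls. Of the muscle and skin genes, Acta1 and Tnnt3 were highest in control 1, at 9.94 and 3.80 FPKM. The skin keratins Krt5, Krt14 and Krt10, named after their values were seen, were at 2.24, 1.79 and 2.36 FPKM in ZQD 2, against at most 0.0284, 0.0710 and 0.585 FPKM in any other library of either group. The part of skin tissue in the values of ZQD 2 was not tested.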
